A study of Mus musculus with 16 samples.

Results

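Glial potassium channels were followed as 5 genes of the 20730 measured, chosen by name: the inward rectifiers Kcnj10 (Kir4.1) and Kcnj16 (Kir5.1) and the tandem-pore channels Kcnk1 (TWIK-1), Kcnk2 (TREK-1) and Kcnk10 (TREK-2). All 5 were found under these names, and all 5 passed the filter on low reads in every comparison. The RNA came from whole striata of 8 adult C57BL/6N mice, all of which carried the RiboTag AAV, a virus that puts a hemagglutinin-tagged ribosomal protein Rpl22 into astrocytes. In 4 mice (PMCA mice) a further AAV encoded hPMCA2w/b, a calcium pump that suppresses calcium signals, and in 4 mice (control mice) it encoded a control protein. Each mouse gave 2 libraries, an IP library of the ribosome-associated RNA precipitated by the tag and an input library of the cleared lysate. There were thus 4 groups of 4 libraries: PMCA IP, control IP, PMCA input and control input. The labels name neither the promoter and serotype of the viruses nor the control protein nor the sex of the mice.

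Astrocytes take up the potassium that neurons release, and disperse it through their coupled network. Kcnj10 encodes the main inward-rectifier subunit of astrocytes, which holds their membrane near the potassium equilibrium and is also found in oligodendrocytes. Kcnj16 encodes a subunit that carries little current alone and joins Kcnj10 in channels whose gating is sensitive to pH. Tandem-pore channels pass background potassium current and set the resting potential, and Kcnk1, Kcnk2 and Kcnk10 are all expressed in astrocytes and also in neurons.

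Kcnj10 lies on chromosome 1 (172341210 to 172374085, mm10), Kcnj16 on chromosome 11 (110968033 to 111027968), Kcnk1 on chromosome 8 (125993655 to 126030685), Kcnk2 on chromosome 1 (189207930 to 189402782) and Kcnk10 on chromosome 12 (98429432 to 98578213). The promoters of Kcnj10 and Kcnj16 are shown because these subunits form channels together and their values are set side by side further on. Each is the 250 bases before a RefSeq start on the plus strand (GRCm38.p6), with a CCAAT or GGGCGG match on either strand in capitals.
Kcnj10, chr1:172340960-172341209: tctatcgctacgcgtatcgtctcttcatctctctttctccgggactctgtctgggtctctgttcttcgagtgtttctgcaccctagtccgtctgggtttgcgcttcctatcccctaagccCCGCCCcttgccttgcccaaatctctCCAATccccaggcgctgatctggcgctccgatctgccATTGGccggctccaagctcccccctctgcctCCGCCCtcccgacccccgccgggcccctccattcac
Kcnj16, chr11:110967783-110968032: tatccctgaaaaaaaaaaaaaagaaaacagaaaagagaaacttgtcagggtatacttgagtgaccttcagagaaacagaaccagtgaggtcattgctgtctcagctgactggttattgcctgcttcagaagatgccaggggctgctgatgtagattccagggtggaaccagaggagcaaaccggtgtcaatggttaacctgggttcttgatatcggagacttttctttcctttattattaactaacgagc
The Kcnj10 window had CCAAT at 104 and 67 bases and GGGCGG at 130 and 36 bases before the start, 17 CpG and 62.0% G or C. The Kcnj16 window, at the 5′-most of its 4 listed starts, had neither motif, 3 CpG and 42.8% G or C, and another of its starts had a CCAAT and a GGGCGG match. CCAAT was in 33.8% and GGGCGG in 32.7% of all 32851 windows of this length, which had a median of 6 CpG. A match describes these letters and not a bound site.

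Libraries held 48.1 to 55.1 M reads in PMCA IP, 46.8 to 58.5 M in control IP, 32.3 to 40.9 M in PMCA input and 33.1 to 40.2 M in control input. Behind the values of the 5 genes lay 163 reads (Kcnk10 in a control input) to 60003 reads (Kcnj10 in a PMCA IP). Levels are log2 of the reads per M reads after the authors' scaling (log2 CPM). They were not compared between genes, since gene lengths were not at hand. Rpl22, the gene of the tagged protein, averaged 8.11 ± 0.108 log2 CPM in PMCA IP and 9.80 ± 0.147 in control IP (SD, n = 4 each), and 6.72 ± 0.086 in PMCA input and 7.60 ± 0.137 in control input. It fell by 1.69 in IP (adjusted p = 1.92e-05) and by 0.88 in input (adjusted p = 0.000489), so the pump and a lower Rpl22 level cannot be told apart in any comparison of PMCA with control mice. Atp2b2, the mouse gene of the pump PMCA2, averaged 9.87 ± 0.20 log2 CPM in PMCA IP and 9.52 ± 0.271 in control IP (difference 0.35, adjusted p = 0.113), and whether the human transgene added reads to it is not known. Of the 22 astrocyte markers examined, all were higher in IP than in input in both treatments. In 2 mice, PMCA 3 and control 4, Xist lay at 4.98 to 9.11 log2 CPM and the Y-linked Ddx3y at -3.72 to -1.64, whereas the other 6 mice had Xist at -2.55 to -0.09 and Ddx3y at 6.35 to 7.25.

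The comparison of IP with input asked which of the channels were enriched on tagged astrocyte ribosomes. Of the 5 genes, 4 were higher in IP than in input and 1, Kcnk2, was lower, and this held in both treatments. In PMCA mice 76.8% of the 16345 genes tested passed the threshold in either direction and 37.4% passed as higher in IP, and in control mice the shares were 77.5% of 16072 genes and 39.1%. The median log2 difference of the 5 genes was 2.01 in PMCA mice and 1.96 in control mice, beside -0.04 in PMCA mice and 0.00 in control mice over all genes tested. Differences are IP minus input in log2 CPM, from limma with Benjamini-Hochberg adjustment over all genes tested and a threshold of 0.05. These fits took the IP and input of a mouse as independent, and with the mouse as a block every call of the 5 genes held. In bulk RNA of this kind, fewer cells of a type and less RNA per cell cannot be told apart.

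Kcnj10 stood at 10.16, 10.01, 10.26 and 10 log2 CPM in PMCA IP and at 6.20, 6.12, 6.26 and 5.99 in PMCA input. In control IP it stood at 9.27, 9.57, 9.73 and 9.70, against 5.90, 5.90, 5.97 and 6.14 in control input. The IP and input libraries were far apart, with no overlap. Kcnj10 was 15.6-fold higher in IP in PMCA mice (95% confidence interval 13.9 to 17.6, log2 difference 3.96, SE 0.077, adjusted p = 6.61e-11). In control mice it was 12-fold higher (10.3 to 14, log2 difference 3.59, SE 0.101, adjusted p = 5.54e-10). Over all genes tested it ranked 10 from the top in PMCA mice and 16 in control mice, and it ranked 1 of the 69 potassium channel genes tested in PMCA mice and 1 of 68 in control mice.

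Kcnj16, its partner subunit, stood at 6.02, 5.95, 6.20 and 6.11 log2 CPM in PMCA IP and at 3.27, 3.29, 3.41 and 3.62 in PMCA input. Control IP had 5.91, 6.30, 6.33 and 6.01, against 3.22, 3.37, 3.29 and 3.59 in control input. It too parted the fractions without overlap, and was 6.38-fold higher in IP in PMCA mice (5.57 to 7.32, adjusted p = 1.28e-09) and 6.83-fold higher in control mice (5.76 to 8.10, adjusted p = 4.08e-09). It ranked 2 among the potassium channel genes in both treatments.

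Kcnk10, a mechanically and chemically gated leak channel, had the fewest reads of the 5 genes. Its levels were 4.35, 4.45, 4.64 and 4.41 log2 CPM in PMCA IP and 2.61, 2.55, 2.26 and 2.38 in PMCA input. Control IP had 4.09, 4.35, 4.42 and 4.62, and control input 2.17, 2.54, 2.58 and 2.35. All IP libraries lay above all inputs, and Kcnk10 was 4.04-fold higher in IP in PMCA mice (adjusted p = 2.35e-08) and 3.88-fold higher in control mice (adjusted p = 1.53e-07).

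Kcnk1, a weakly inward-rectifying leak channel, stood at 8.35, 8.26, 8.18 and 8.00 log2 CPM in PMCA IP and at 6.75, 6.67, 6.66 and 6.61 in PMCA input. In control mice it had 8.05, 8.28, 8.29 and 8.16 in IP and 6.84, 6.78, 6.80 and 6.73 in input. The fractions did not overlap, and Kcnk1 was 2.88-fold higher in IP in PMCA mice (adjusted p = 1.89e-08) and 2.64-fold higher in control mice (adjusted p = 8.65e-09).

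Kcnk2, a leak channel opened by stretch, heat and fatty acids, went the other way. It stood at 6.37, 6.29, 6.10 and 6.23 log2 CPM in PMCA IP, below 7.08, 7.11, 6.98 and 6.86 in PMCA input. Control IP had 6.22, 6.03, 5.73 and 5.89, below 7.05, 7.18, 6.96 and 6.88 in control input. In all 8 mice the IP held less Kcnk2 than the input of the same mouse, so it was not enriched in these precipitates. The cause was not tested. The log2 difference was -0.76 in PMCA mice (SE 0.073, adjusted p = 4.06e-06) and -1.05 in control mice (SE 0.101, adjusted p = 3.11e-06), which puts IP at 0.590 times the input level in PMCA mice and 0.483 times in control mice. It ranked 41 of 69 potassium channel genes in PMCA mice and 49 of 68 in control mice.

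**Figure D1:**
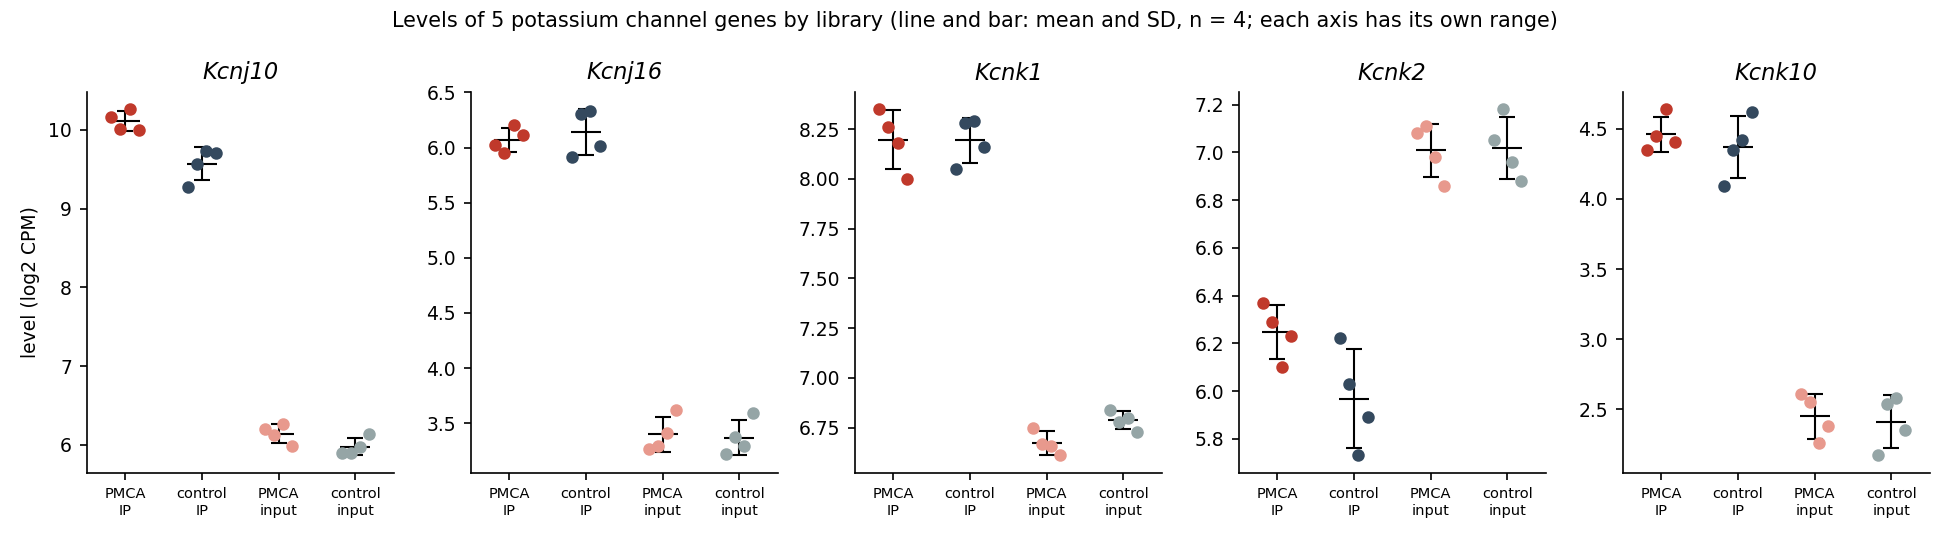
Level (log2 CPM, each panel with its own range) of the 5 channel genes in each of the 16 libraries, with group mean and SD as line and bar (n = 4). IP lay above input for Kcnj10, Kcnj16, Kcnk1 and Kcnk10 and below it for Kcnk2, and for Kcnj10 every PMCA IP library (10 to 10.26) lay above every control IP library (9.27 to 9.73).

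Within a gene, the order of the 4 groups was thus set by fraction. Among neighbours in that order, PMCA IP and control IP overlapped for Kcnj16, Kcnk1, Kcnk2 and Kcnk10, and PMCA input and control input overlapped for all 5 genes. Of the 5 genes, only Kcnj10 in IP had levels that did not overlap between treatments. How many of all genes part in this way was not counted, so this is not read as a result about the 5 genes. By another measure, limma called 19.6% of 15748 genes tested in IP.

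The same directions were not general among potassium channel genes. Of 11 other inward rectifiers tested in PMCA mice 1 was higher in IP and 7 lower, and of 11 in control mice 1 was higher and 6 lower. The higher one was Kcnj14 (log2 difference 2.62 in PMCA mice and 2.17 in control mice). Kcnj8, a subunit of ATP-sensitive channels found in pericytes, was the most depleted of them (-4.23 in PMCA mice and -3.27 in control mice). It was followed by Kcnj4 (-1.95 in PMCA mice and -1.81 in control mice) and Kcnj2 (-1.78 in PMCA mice and -1.74 in control mice), strong rectifiers. Of the 8 other tandem-pore channels tested, 2 were higher and 1 lower in PMCA mice and 2 were higher and 3 lower in control mice. Kcnk9 (1.95 in PMCA mice and 2.09 in control mice) and Kcnk12 (0.64 in PMCA mice and 0.72 in control mice) were higher, and Kcnk6 was lower (-2.91 in PMCA mice and -4.07 in control mice). Voltage-gated channels were mostly lower in IP, with 10 higher and 24 lower of 37 in PMCA mice and 11 higher and 22 lower of 36 in control mice. So were auxiliary subunits, with 3 higher and 8 lower of 12 in PMCA mice and 2 higher and 7 lower of 12 in control mice. Of 8 calcium- or sodium-activated channels, 2 were higher and 5 lower in PMCA mice and 2 were higher and 4 lower in control mice. Over all genes tested, 39.3% were lower in IP in PMCA mice and 38.4% in control mice.

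Of 20 genes that act with Kcnj10 in potassium and water clearance, 15 were higher in IP and 5 lower in PMCA mice, and 15 were higher and 4 lower in control mice. The sodium pump subunit Atp1b2 led them (4.60 in PMCA mice and 4.06 in control mice). The water channel Aqp4 (3.12 in PMCA mice and 3.23 in control mice) and the gap junction protein Gja1 (3.04 in PMCA mice and 3.06 in control mice) were also higher. Medians of this list were 1.91 in PMCA mice and 1.84 in control mice.

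**Figure D2:**
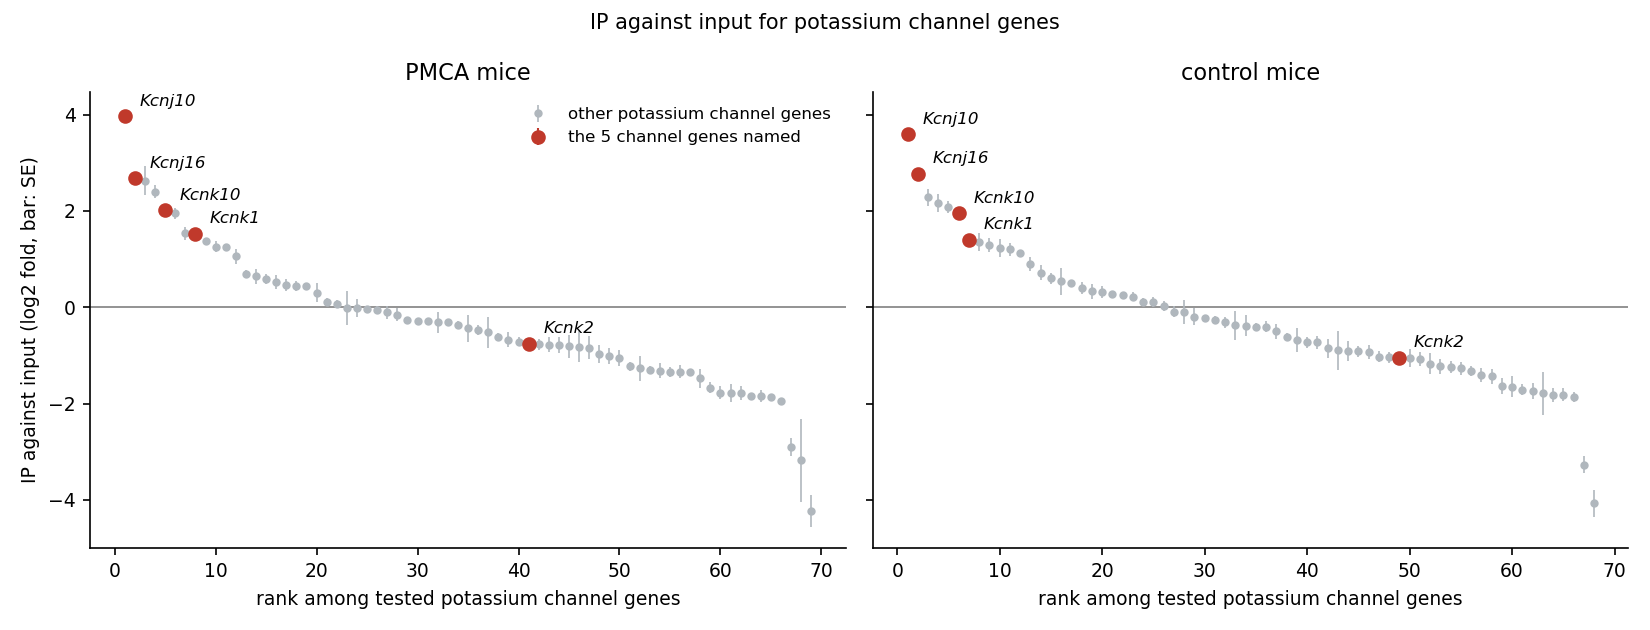
IP against input (log2 fold with SE) of each potassium channel gene tested, ordered by rank, in PMCA mice (left, 69 genes) and control mice (right, 68 genes), with the 5 named genes as large points. Kcnj10 and Kcnj16 are at ranks 1 and 2 in both panels, and Kcnk2 lies below 0 at rank 41 in PMCA mice and 49 in control mice.

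Markers of other cell types were measured in the precipitates too. Those of striatal projection neurons were lower in IP in 10 of 10 cases in both treatments (median -1.74 in PMCA mice and -1.60 in control mice), microglial markers in 11 of 11 (-4.66 in PMCA mice and -5.58 in control mice) and endothelial markers in 8 of 8 (-3.57 in PMCA mice and -4.20 in control mice). Interneuron markers were higher in IP for 7 of 9 genes in PMCA mice and 8 of 9 in control mice. Their medians, 1.63 in PMCA mice and 1.94 in control mice, were near those of the 5 channel genes (2.01 and 1.96). The medians of the 22 astrocyte markers were 2.78 in PMCA mice and 2.80 in control mice. Oligodendrocyte markers were higher for 7 of 10 genes in PMCA mice (median 0.45) and 4 of 10 in control mice (0.39). No marker of these lists was at 0 reads in a whole group. The part of other cells in the IP levels of the 5 genes was not tested.

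The 8 IP libraries were then compared between treatments, to ask whether suppressing astrocyte calcium signals changed the channels' RNA on astrocyte ribosomes. Kcnj10 rose, and none of the other 4 genes passed the threshold, so that 1 of 5 was called, where 19.6% of the 15748 genes tested were called in either direction and 9.54% as higher. The count is thus near the background and is not a result about the 5 genes as a set. Their median difference was 0.10, beside -0.01 over all genes tested.

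Kcnj10 averaged 1110 ± 95.8 CPM in PMCA IP and 764 ± 106 CPM in control IP (SD, n = 4 each). All 4 PMCA libraries lay above all 4 control libraries. The level was 1.45-fold higher in PMCA mice (95% interval 1.22 to 1.73, log2 difference 0.54, SE 0.113, adjusted p = 0.0113, limma), and an exact two-sided permutation test gave p = 0.0286, the smallest that 4 against 4 libraries allow. Kcnj10 ranked 1359 from the top of 15748 genes and 4 of 68 potassium channel genes. The difference kept its call without any 1 mouse (0.44 to 0.60, adjusted p 0.00982 to 0.0394) and in the 6 mice with Ddx3y (0.53, adjusted p = 0.0496, chosen after seeing the data). The animal numbers fall into a lower and a higher set, and control 4 has a number of the higher set in its title and of the lower set in its source name. By source name the higher set was PMCA 3 and PMCA 4, with no control mouse. The fit by source name thus sets only PMCA 1 and PMCA 2 against the control mice. With the set as a covariate, the difference was 0.52 either way, with adjusted p = 0.0162 by title and 0.0503 by source name, which missed the threshold.

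Kcnj16 averaged 67.3 ± 5.03 CPM in PMCA IP and 71.0 ± 10.2 CPM in control IP, and the groups overlapped (log2 difference -0.07, 95% interval -0.30 to 0.16, adjusted p = 0.668). The interval reaches no further than a 1.12-fold higher or a 0.813-fold level in PMCA mice. Kcnk1 averaged 294 ± 30.1 CPM in PMCA IP and 293 ± 22.8 in control IP (log2 difference 0.00, -0.19 to 0.20, adjusted p = 0.979). Kcnk10 averaged 22.1 ± 2.02 CPM in PMCA IP and 20.8 ± 3.11 in control IP (log2 difference 0.10, -0.16 to 0.35, adjusted p = 0.585). Neither gene separated the treatments.

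Kcnk2 averaged 76.1 ± 5.97 CPM in PMCA IP and 63.1 ± 9.10 in control IP (log2 difference 0.28, SE 0.103, 95% interval 0.05 to 0.51). Control 1, at 6.22 log2 CPM, lay within the PMCA libraries, and the other 3 control libraries lay below all of them. The difference did not pass over all genes (adjusted p = 0.0835, limma), and the exact permutation p was 0.0571. It passed without control 1 (0.36, adjusted p = 0.0272) and in no other fit that left out 1 mouse.

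**Figure D3:**
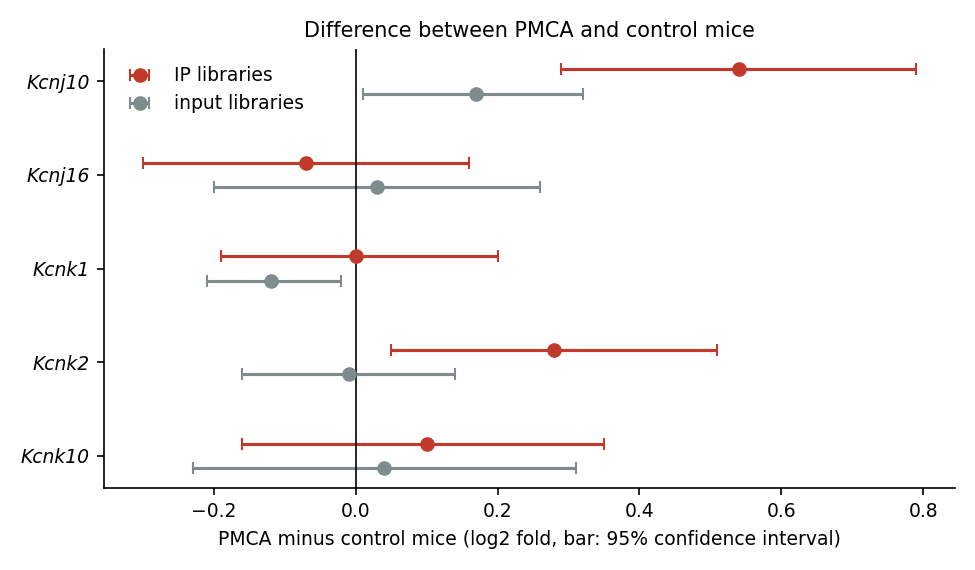
PMCA minus control mice (log2 fold with 95% confidence interval) for the 5 channel genes in IP and in input libraries. In IP the interval of Kcnj10 runs from 0.29 to 0.79 and that of Kcnk2 from 0.05 to 0.51, while those of Kcnj16, Kcnk1 and Kcnk10 span 0. In input those of Kcnj10 and Kcnk1 lie to either side of 0 and the other 3 span it.

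Because Kcnj10 and Kcnj16 form channels together, their difference within each library was taken. It was chosen after Kcnj10 was seen to be higher and Kcnj16 not, and is no independent evidence of either. No scaling factor changes it, and it carries the 2 genes' lengths, so that only its change between groups can be read. In PMCA IP Kcnj10 exceeded Kcnj16 by 4.14, 4.07, 4.06 and 3.89 log2 units, against 3.35, 3.27, 3.40 and 3.69 in control IP. The groups did not overlap, and the means differed by 0.61 (4.04 ± 0.107 in PMCA IP and 3.43 ± 0.181 in control IP, SD, n = 4 each, exact permutation p = 0.0286; 0.56 to 0.70 without any 1 mouse). In input the difference was 2.93, 2.84, 2.85 and 2.37 in PMCA mice and 2.68, 2.53, 2.67 and 2.56 in control mice, which overlapped (difference of means 0.14, exact permutation p = 0.371).

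Kcnj10 was also set against the other astrocyte RNA of its library, as its log2 CPM minus the median of the 22 astrocyte markers. That difference was 0.82, 0.71, 0.95 and 0.87 in PMCA IP and 0.26, 0.33, 0.43 and 0.71 in control IP. Control 4 came as near as PMCA 2 at 2 decimals, and the groups only just did not overlap (difference of means 0.41, exact permutation p = 0.0286). The marker median itself was 9.13 to 9.34 in PMCA IP and 8.99 to 9.31 in control IP (exact permutation p = 0.2). By the same measure Kcnj16 differed by -0.20 (exact permutation p = 0.0571), Kcnk1 by -0.13 (0.0571), Kcnk2 by 0.15 (0.457) and Kcnk10 by -0.03, with overlapping groups.

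**Figure D4:**
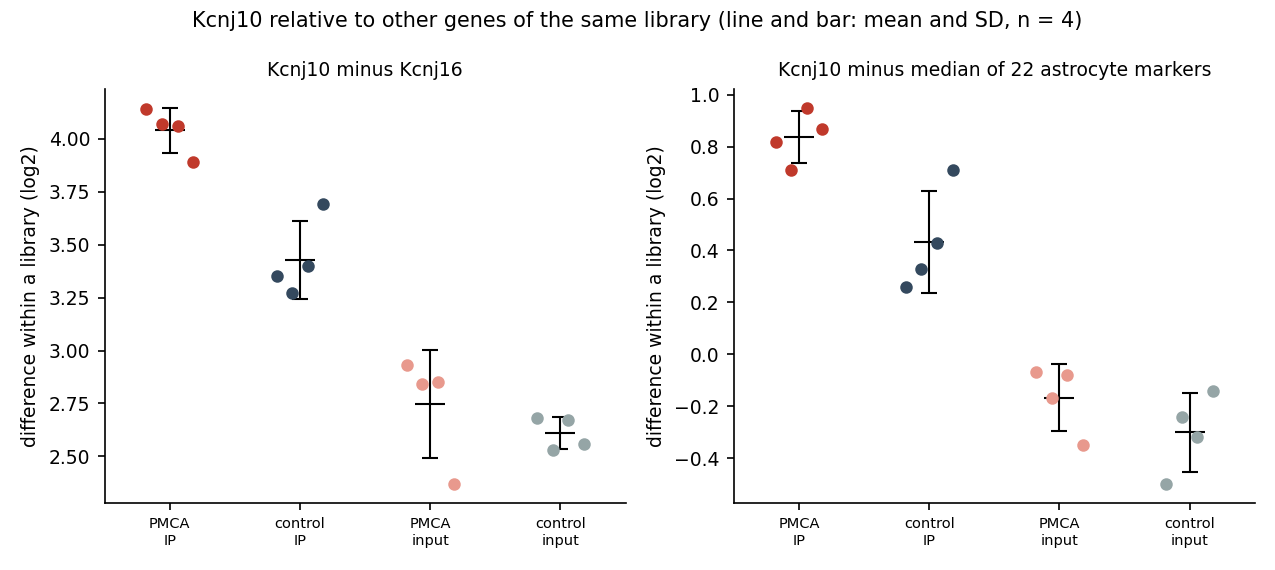
Kcnj10 relative to Kcnj16 (left) and to the median of 22 astrocyte markers (right) within each library, in log2 units, with mean and SD (n = 4). Relative to Kcnj16 the PMCA IP libraries lie at 3.89 to 4.14 and the control IP libraries at 3.27 to 3.69, and the inputs of the treatments overlap in both panels.

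RNA of other cell types also moved with the treatment in IP. Of 12 neuron markers 7 fell (summed level 2310 to 2760 CPM in PMCA IP and 2950 to 3910 in control IP), and of 9 interneuron markers 6 fell (1030 to 1150 CPM in PMCA IP and 1250 to 1310 in control IP). Of 11 microglial markers 4 rose (82.9 to 134 CPM in PMCA IP and 66.2 to 84.9 in control IP), and of 8 endothelial markers 4 rose (11.3 to 16.7 CPM in PMCA IP and 7.34 to 8.29 in control IP). Of 22 astrocyte markers 2 rose and 3 fell (55800 to 68000 CPM in PMCA IP and 43600 to 58200 in control IP). Of 10 oligodendrocyte markers none passed (6040 to 7160 CPM in PMCA IP and 5050 to 11100 in control IP), nor did any of 6 markers of their precursors, while 1 of 10 projection neuron markers fell and 2 of 6 mural markers rose and 2 fell. The part of these shifts in the Kcnj10 difference was not tested.

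The other potassium genes are given by list, beside the 19.6% called over all genes in IP. Of 11 other inward rectifiers, Kcnj13 rose (log2 difference 1.66, SE 0.431, adjusted p = 0.0248, at -0.26 log2 CPM in PMCA IP and -1.92 in control IP) and Kcnj3, a G-protein-gated subunit of neurons, fell by 0.49 (adjusted p = 0.0174). Of 8 other tandem-pore channels, Kcnk6 rose (1.52, SE 0.317, adjusted p = 0.0109, at 0.92 log2 CPM in PMCA IP and -0.61 in control IP). Of 36 voltage-gated channels 1 rose and 3 fell, led by Kcnc2 (-0.73, adjusted p = 0.0053), a channel of fast-spiking interneurons, and Kcns3 (-0.64). Of 8 calcium- or sodium-activated channels, Kcnn3 rose (0.40, adjusted p = 0.00844) and Kcnt2 fell by 0.52. Of 11 auxiliary subunits 1 rose and 2 fell, Kcne1l (0.36), Kcnip1 (-0.78) and Kcnab3 (-0.65).

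The clearance genes did not move one way. Atp1b2 rose (0.67, SE 0.132, adjusted p = 0.00869), as did the potassium-chloride cotransporter Slc12a7 (0.51, adjusted p = 0.0147). Of the 20 genes 2 rose and 3 fell, and 15 passed in neither direction. The median of the list was 0.01.

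In input none of the 5 channel genes passed, where 0.442% of the 16306 genes tested were called (limma). Kcnj10 averaged 70.9 ± 5.59 CPM in PMCA input and 63.2 ± 5.21 CPM in control input (SD, n = 4 each). The groups overlapped, and the log2 difference was 0.17 (95% interval 0.01 to 0.32, adjusted p = 0.228, exact permutation p = 0.0857). It passed without control 4, the highest control input (0.22, adjusted p = 0.0449). Kcnk1 averaged 102 ± 4.29 CPM in PMCA input and 111 ± 3.26 in control input (log2 difference -0.12, -0.21 to -0.02, adjusted p = 0.177, exact permutation p = 0.0571). Relative to the mean of the astrocyte markers, Kcnk1 was lower in PMCA input without overlap (-0.15, exact permutation p = 0.0286). Relative to their median its groups overlapped (-0.15, exact permutation p = 0.0857). The other channel genes overlapped in input by either measure. At an unadjusted p under 0.05 Kcnj10 and Kcnk1 would have counted (limma, 0.0345 for Kcnj10 and 0.0176 for Kcnk1).

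For the other 3 genes the interval in input spanned 0. Kcnj16 differed by 0.03 (-0.20 to 0.26), Kcnk2 by -0.01 (-0.16 to 0.14) and Kcnk10 by 0.04 (-0.23 to 0.31). Of the other potassium genes, only Dmd, the dystrophin gene of the clearance list, was called in input (0.22, adjusted p = 0.0409).

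Whether the PMCA difference was larger in IP than in input was tested as an interaction over all 16 libraries, in which 2.03% of 16673 genes were called and none of the 5 genes passed. For Kcnj10 the interaction was 0.37 (SE 0.135, 95% interval 0.09 to 0.66, adjusted p = 0.172). Input and IP share a mouse, and with the mouse as a block the same value had SE 0.091 and adjusted p = 0.0489. That call was lost without any 1 of 6 of the 8 mice (adjusted p 0.0816 to 0.124) and held without PMCA 4 or control 3.

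Per mouse, Kcnj10 in IP exceeded its own input by 3.96, 3.89, 4.00 and 4.00 log2 units in PMCA mice and by 3.36, 3.67, 3.77 and 3.55 in control mice. The groups did not overlap (exact permutation p = 0.0286, chosen after seeing the data). Kcnk2 had -0.71, -0.81, -0.88 and -0.64 in PMCA mice and -0.83, -1.14, -1.23 and -1.0 in control mice, where control 1 lay among the PMCA mice (interaction 0.29, adjusted p = 0.29, 0.122 with the block, exact permutation p = 0.0571). For Kcnj16 (-0.10, adjusted p = 0.811), Kcnk1 (0.12, 0.598) and Kcnk10 (0.06, 0.912) the mice of both treatments overlapped.

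The genes most like each channel across libraries were listed as a description, with Pearson's r of log2 CPM. Libraries of both treatments entered each r, so it also carries the difference between PMCA and control mice. Over all 16 libraries it carries fraction and scaling too. Over the 8 IP libraries and 12992 genes, Kcnj10 was nearest to Zfp488 (0.993), Cyp2u1 (0.991) and Prkcdbp (0.988). Kcnj16 was nearest to Cyp2j9 (0.974), Msmo1 (0.949) and Usp53 (0.935). No gene stood on both lists, which at 3 genes each are too short for this to tell the channels apart. Kcnk1 was nearest to Lmcd1 (0.978), Itgb5 (0.978) and Chmp4b (0.972), Kcnk2 to Ccdc148 (0.983), Efna5 (0.979) and Abl2 (0.958), and Kcnk10 to Ext1 (0.967), Rnf43 (0.964) and Orai1 (0.963). Over all 16 libraries, where the fraction sets most of the spread, r was 0.985 or more for the nearest 3 genes of each channel: Tjp1, Tfcp2l1 and 2610034M16Rik for Kcnj10, Usp53, Cyp2j9 and Jam2 for Kcnj16, Glo1, Fkbp9 and Fam181b for Kcnk1, Tlk1, Ccdc148 and Neto1 for Kcnk2, and Csrp1, Ppt1 and Vps8 for Kcnk10.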

How the data were processed

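RNA was sequenced from 16 libraries of 8 mice, with ribosomal RNA removed and stranded libraries made, per the labels' protocols. STAR, HTSeq, edgeR, limma and the build mm10 are named in the submitters' processing notes. Tool versions, the annotation and the strand setting were not given in the sources used here, so reads of overlapping antisense genes may have been counted together. The deposited values are log2 CPM of 20730 genes per library. Undoing the log2 scale and the average prior count of 0.25 gave whole reads for 100% of values within a tolerance of 0.001. The authors' scaling factors, read from the deposited values, were 0.8909 to 0.9177 in IP and 1.0992 to 1.1217 in input.

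Library groups came from the labels, and IP and input were matched through the source name. Each comparison was a limma fit (version 3.58.1, R 4.3.3) to the deposited log2 CPM with a mean-variance trend, two-sided, adjusted by Benjamini-Hochberg over all genes tested, at a threshold of 0.05. Genes needed 10 reads, in a library of median size, in 4 libraries, and 15 reads in all. The models were run on simulated data that left out the mouse shared by IP and input, and the outcome is not given here. Single values were tested by exact permutation over the 70 assignments of 4 against 4 (Python 3.11.15, numpy 2.4.6). P-values measure only the spread between libraries of these mice. Fits across fractions took the IP and input of a mouse as independent, except where the mouse was a block. After subtraction of group means, the IP and input values of a mouse correlated across genes with r of 0.114 to 0.327 (8 mice, 16673 genes). Between different mice of the same treatment r was -0.195 to 0.078. For 6 of the 8 inputs, the most similar of all IP libraries was that of the same mouse. For the remaining inputs it was that of another mouse, and the pairing rests on the labels.

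The 5 genes, the gene lists and the tests were chosen with earlier results of these data known. The text names the 5 genes, Rpl22 and Atp2b2, of each potassium gene list up to 4 called genes of largest difference per comparison (a few are not reported here), and the 3 genes nearest each channel. Kcnk16 was listed as a tandem-pore channel and is not analysed here. Promoters are RefSeq windows (GRCm38.p6), with 12 listed for the 5 genes. Besides the 2 motifs shown, TATAAA (12.4% of windows), TGACGTCA (1.55%), AACAAAG (5.03%) and the NFI motif (0.0365%) were searched on both strands. Alternatives were the filter, the pseudocount, 3 other scalings or weightings, the animal-number set, the mouse as a block and each mouse left out. Levels per gene length were planned and not computed, because exon lengths were not at hand.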

Additional observations from a re-analysis of the deposited data

Results flagged for a closer look

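The PMCA difference of Kcnj10 was larger in IP than in input by 0.37 on the log2 scale when the mouse was a block (adjusted p = 0.0489, limma), which is a difference between fractions under the same contrast. Without the block the same value had adjusted p = 0.172. IP exceeded input by 3.89 to 4.00 in the 4 PMCA mice and by 3.36 to 3.77 in the 4 control mice. Without each mouse in turn the blocked value was 0.30 to 0.43, with adjusted p of 0.0446 to 0.124. No library lay far from the others of its group in 24 groups of 4 examined for the 5 channels and for Kcnj10 minus Kcnj16, where chance would mark about 1 group in 20.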

How the results depend on the processing

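Over 30 results and 380 alternative values, 355 kept their direction and their side of the threshold or, where a mouse left out of a marker difference gave no p, moved by less than the spread between libraries. Among them was every value of IP against input. Kcnj10 in IP missed the threshold once, at 0.52 with the animal-number set by source name (adjusted p = 0.0503), and was 0.52 to 0.56 in the other settings and 0.44 to 0.60 without each mouse in turn. Called only in an alternative were Kcnk2 in IP without control 1 (0.36; 0.20 to 0.36 over all mice left out), Kcnj10 in input without control 4 (0.22; 0.13 to 0.22) and the Kcnj10 interaction with the replicate block (0.37, adjusted p = 0.0489). The block changed no other call of the 5 genes. Signs turned in 21 values with a test, none of them called. Kcnk1 in IP was -0.01 with total reads, 0.00 in the 6 mice with Ddx3y and -0.05 to 0.07 without each mouse. In input, Kcnj16 was -0.04 with the set by title, -0.09 by source name and -0.05 to 0.10 without each mouse. Kcnk2 in input was 0.00 with total reads, 0.03 and 0.08 with the sets and -0.05 to 0.04 without each mouse, and Kcnk10 was -0.04 to 0.10. The Kcnk10 interaction was -0.07 to 0.16 without each mouse, and Kcnk10 against the mean of the astrocyte markers was 0.05. Kcnk10 against their median, -0.03, was -0.09 to 0.10 without each mouse and also turned its sign. The causes were not tested.

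Counts of called genes moved more. In IP 3088 genes were called, 1699 with the set by source name, 1240 in the 6 mice with Ddx3y and 1702 to 3606 without each mouse. In input 72 were called, 43 without the filter, 32 and 868 with the sets by source name and title, 490 in those 6 mice and 4 to 1352 without each mouse, 1352 without control 4. The interaction called 339 genes, 43 in those 6 mice and 23 to 436 without each mouse. Total reads without scaling factors put the median IP against input at -0.3468 in PMCA mice, beside -0.0414, and at -0.2783 in control mice, beside -0.0025. Calls were then 4294 higher and 8898 lower in PMCA mice, beside 6121 and 6430, and 4493 and 8389 in control mice, beside 6285 and 6172. Depth limits mainly Kcnk10, with 163 to 264 reads in the inputs.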
